A study of Mus musculus with 2 samples.

Results

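The proteasome is the large protease that degrades ubiquitin-tagged proteins, and its subunit genes were compared here between regenerating liver of wild type (WT) and of mice labelled PPARβ-null (KO). Members were all gene symbols of the authors' deposited table that begin with Psma, Psmb, Psmc, Psmd, Psme or Psmf and a number, outside the 21 loci marked HIDATA, a mark for loci with too many fragments for an estimate. This rule found 49 of 33224 symbols. Of these, 44 are numbered proteasome genes. The other 5 only begin like a subunit name and are described apart. An average FPKM (fragments mapped to a locus, normalised for exon length and for the mapped fragments of the library) of at least 1 over both libraries, called expressed below, was found for 42 of the 44 numbered genes, all but Psma8 and Psmb11. The rule used no measured value.

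The 26S proteasome consists of a barrel-shaped 20S core, in which rings of α subunits enclose rings of β subunits, and of 19S caps. The core cuts proteins at the active sites of Psmb5, Psmb6 and Psmb7. The caps recognise ubiquitin, remove it and unfold the substrate with a ring of ATPases. Under interferon-γ, and constitutively in many immune cells, the active subunits are replaced by Psmb8, Psmb9 and Psmb10 to form the immunoproteasome, which favours peptides that fit MHC class I molecules. Hepatocytes normally carry mainly the constitutive form.

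The samples were 1 WT and 1 PPARβ-null liver sample of male C57BL/6 mice, given in the labels as 4 months old, with total RNA sequenced as 1 library per genotype. The study's text places both livers at 48 hr after removal of liver lobes by partial hepatectomy (PH), which both genotypes underwent, and no liver without PH was sequenced in the libraries analysed here. The type of the Ppard allele and the number of mice behind each library are not given in the sources used here. The libraries were run in lane 2 (WT) and lane 3 (KO), so lane and genotype cannot be told apart. With 1 library per genotype, no difference between mice can be estimated, no test between the conditions was possible, and all values below describe these 2 libraries. In whole liver, fewer cells of a type and less RNA per cell cannot be told apart.

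Depth was estimated from low values of single-exon genes, which pile up at multiples of 1 fragment. It came to about 54300000 mapped fragments in WT and 55400000 in KO. The 95% counting interval given beside a ratio is an exact Clopper-Pearson interval computed from the estimated fragments of the gene and covers counting error only. Ppard, the targeted gene (chromosome 17, 28369699 to 28438414, mm9), reached 2.67 FPKM in WT and 2.42 FPKM in KO. Its WT/KO ratio was 1.10 (counting interval 0.900 to 1.35), so the Ppard level did not separate the libraries. The 11723 expressed symbols were centred on a log2 KO/WT of -0.24, computed after adding 0.1 to each FPKM. This is a WT/KO ratio of 1.18, and differences of subunits are also given relative to this shift.

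Promoter sequences of the immunoproteasome genes with a locus of their own and of the constitutive partners that they replace are shown, since these subunits exchange for one another at the same place in the core. Each runs 5′ to 3′ on the coding strand over the 250 bases before the gene start in RefSeq on GRCm38.p6, a build other than that of the deposited table. Psmb9 lies at chr17:34187331-34187580 on the minus strand, Psmb8 at chr17:34197945-34198194 on the plus strand, Psmb6 at chr11:70525107-70525356 on the plus strand and Psmb5 at chr14:54617996-54618245 on the minus strand. Capitals mark matches, on either strand, to the antioxidant response element core TGACNNNGC, the CCAAT box, the interferon-stimulated response element core (GAAA, any 2 bases, GAAA) or the gamma-activated site core TTCNNNGAA.
Psmb9: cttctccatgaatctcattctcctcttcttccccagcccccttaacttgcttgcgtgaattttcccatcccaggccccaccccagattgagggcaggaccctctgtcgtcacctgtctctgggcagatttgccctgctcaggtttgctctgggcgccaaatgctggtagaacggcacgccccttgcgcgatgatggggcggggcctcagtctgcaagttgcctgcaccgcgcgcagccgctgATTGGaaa
Psmb8: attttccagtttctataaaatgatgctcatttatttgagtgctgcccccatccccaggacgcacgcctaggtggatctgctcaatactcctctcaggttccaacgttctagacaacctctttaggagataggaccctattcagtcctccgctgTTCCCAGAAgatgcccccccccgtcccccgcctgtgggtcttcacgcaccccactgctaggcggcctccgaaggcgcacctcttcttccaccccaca
Psmb6: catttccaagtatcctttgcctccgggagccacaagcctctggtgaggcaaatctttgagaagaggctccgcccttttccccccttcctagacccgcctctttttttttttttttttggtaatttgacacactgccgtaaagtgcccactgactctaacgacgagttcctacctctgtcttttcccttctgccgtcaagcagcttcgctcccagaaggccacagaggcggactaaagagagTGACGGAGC
Psmb5: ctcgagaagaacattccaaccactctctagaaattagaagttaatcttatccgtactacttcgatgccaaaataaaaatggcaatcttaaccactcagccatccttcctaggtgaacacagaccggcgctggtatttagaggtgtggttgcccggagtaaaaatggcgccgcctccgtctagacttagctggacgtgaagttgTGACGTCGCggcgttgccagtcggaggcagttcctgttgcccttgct

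The antioxidant response element core, bound by Nrf1 and Nrf2, stood before both constitutive genes shown, as TGACGGAGC for Psmb6 and TGACGTCGC for Psmb5. It was found before 4 of the 25 constitutive subunit genes with an entry, the others being Psmc6 and Psmd12, and in 10.2% of all 32851 promoters of the same length. The CCAAT box was found before 10 of these 25 genes and in 33.8% of all promoters. The gamma-activated site core occurred before Psmb8 as TTCCCAGAA, before none of the 25 constitutive genes and in 7.02% of all promoters. The interferon-stimulated response element core, bound by interferon regulatory factors, had no match before Psmb8, Psmb9 or Psmb10 and matched Psmb3 and Psmd4 among the constitutive genes, against 2.98% of all promoters. Promoters were matched for 37 of the 44 numbered genes, with no entry for Psma8, Psmb1, Psmb2, Psmb7, Psmc3, Psmd3 and Psmd7. A match to these letters is a description of the sequence and not a binding site.

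The 31 numbered genes of the constitutive 26S proteasome, which leave out subunits named otherwise, were expressed at nearly the same level in the WT and KO libraries. None of them differed by more than 1.5-fold in either direction, whereas 19.9% of the 11723 expressed symbols were lower in KO past that fold and 4.20% were higher. Among symbols averaging 10 FPKM or more, a level that all 31 genes reached, the shares were 13.3% lower and 4.97% higher. A narrower limit of 0.32 on the log2 scale held 30 of the 31 genes, 51.7% of all expressed symbols and 56.9% of those averaging 10 FPKM or more. Past it as deposited, 1 of the 31 genes was lower in KO and none was higher. Among all expressed symbols, 40.5% were lower past it and 7.80% higher. Relative to the median of all expressed symbols, Psmd2 (0.34) and Psmd4 (0.37) were past this limit and higher in KO. Psmb2 (-0.097) was then within it, and the share of all expressed symbols on that scale is not given here. The WT/KO ratios of the 31 genes ran from 0.913 for Psmd4 to 1.26 for Psmb2. The SD of their log2 KO/WT was 0.11, against 0.78 over all expressed symbols and 0.69 over those averaging 10 FPKM or more. Their median log2 KO/WT was -0.09, which is 0.15 above the median of all expressed symbols, and 29 of 31 lay above that median. As deposited, 25 of the 31 were lower and 6 higher in KO. After centring on the median of all expressed symbols, 2 were lower and 29 higher, or 3 and 28 with ratios taken without the pseudocount. After scaling to equal upper quartiles, 1 was lower and 30 were higher. The direction of the small shift is thus set by the scaling of the libraries.

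**Figure D1:**
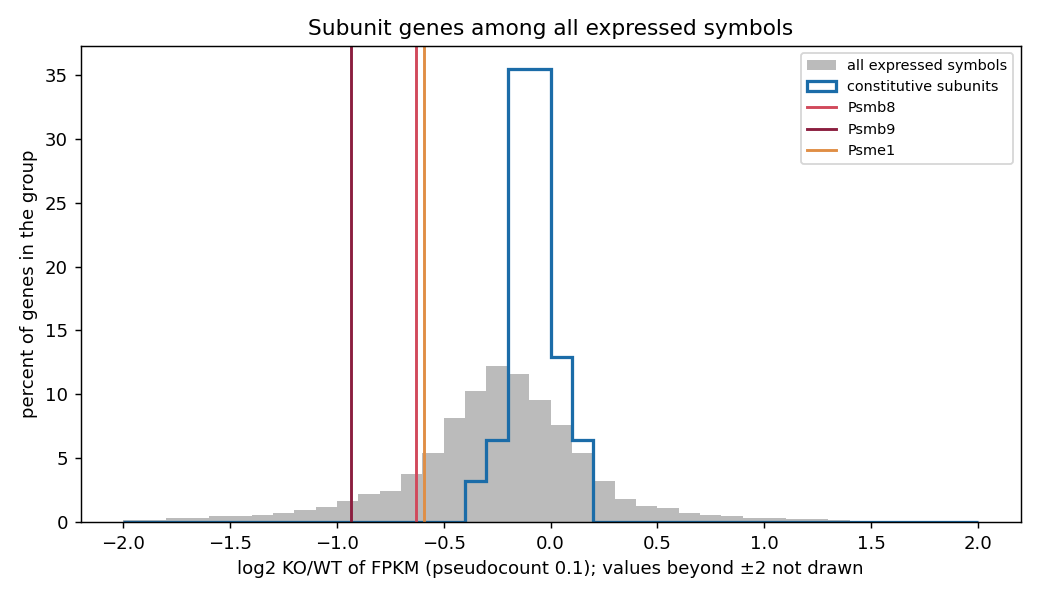
Distribution of log2 KO/WT of FPKM (x axis, pseudocount 0.1) as percent of genes in each group (y axis) for the 11723 expressed symbols (grey) and the 31 constitutive subunit genes (blue outline), with vertical lines at Psmb8, Psmb9 and Psme1. The constitutive genes sit between -0.33 and 0.13, while Psmb9 (-0.93), Psmb8 (-0.63) and Psme1 (-0.59) lie to the left of them.

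The α ring forms the gate of the core, and all 7 of its genes were slightly lower in KO, their log2 KO/WT having a median of -0.15, which turned to 0.11 after scaling to equal upper quartiles and to 0.090 after centring. Psma4 was the most abundant, at 98.4 FPKM in WT and 88.8 FPKM in KO. Psma7 had 86.8 and 77.7, in the same order. Psma3 had 85.9 in WT and 72.8 in KO, which gave a WT/KO ratio of 1.18 (counting interval 1.13 to 1.23) that was the largest of the ring. Psma1 stood close to these genes in level. Its FPKM was 85.0 in WT and 79.6 in KO. For Psma6 the libraries were nearly equal, at 77.0 in WT and 76.7 in KO. Psma5 had 38.5 and 37.9. Psma2 was the lowest of the α genes in both libraries, and of all 31 constitutive genes. It reached 30.9 FPKM in WT and 27.0 FPKM in KO.

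The constitutive β ring holds the active sites and had the highest levels of the complex, with a median FPKM of 123 in WT and 114 in KO. The genes of the 3 active subunits differed little between libraries. Psmb5, which carries the chymotrypsin-like site, reached 128 FPKM in WT and 125 FPKM in KO, on a row that also names the microRNA gene Mir686. Psmb6, with the caspase-like site, had 123 in WT and 124 in KO. Psmb7, with the trypsin-like site, had 128 in WT and 114 in KO. The median of their log2 KO/WT was -0.04. The other β genes encode subunits without an active site. Psmb4 was the most abundant constitutive subunit gene in WT, at 132, and had 120.3 in KO. Psmb1 reached 94.4 FPKM in WT and 85.6 FPKM in KO, and Psmb3 had 80.4 and 79.6. The largest difference of all 31 genes was that of Psmb2. Its FPKM was 71.4 in WT and 56.6 in KO, which gave a WT/KO ratio of 1.26 (counting interval 1.19 to 1.33).

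The ring of ATPases at the base of the cap, which unfolds substrates, held 6 genes whose log2 KO/WT had a median of -0.06. Psmc1 reached 65.3 FPKM in WT and 59.6 FPKM in KO. Psmc3 had 61.4 and 57.6, and Psmc4 had 60.8 and 53.6. Each of these was slightly lower in KO as deposited. Psmc5 was the only ATPase gene with a higher value in KO, with 47.1 in WT and 49.7 in KO. Psmc2 and Psmc6 were nearly equal between libraries. The former reached 46.2 FPKM in WT and 45.6 FPKM in KO, and the latter 44.2 and 43.1.

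Among the remaining genes of the base, Psmd2 and Psmd4 were higher in KO as deposited. Psmd2, a scaffold that binds substrate shuttles, reached 76.2 FPKM in WT and 81.9 FPKM in KO. Psmd4, a ubiquitin receptor, had 62.2 in WT and 68.1 in KO, which gave a WT/KO ratio of 0.913 (counting interval 0.876 to 0.951). Psmd1, the other large scaffold, had 49.99 and 45.2 on a row that also names Armc9.

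The lid removes ubiquitin chains before degradation, and over its 8 genes the median of log2 KO/WT was -0.04. Psmd14, the deubiquitinating enzyme of the lid, reached 49.5 FPKM in WT and 43.8 FPKM in KO. Psmd8 was the most abundant lid gene, at 80.4 in WT and 68.2 in KO, which gave a WT/KO ratio of 1.18. It also differed most among the lid genes. Psmd11 had 57.4 and 52.5, and Psmd3 had 51.5 and 49.7. Psmd6 and Psmd7 were marginally higher in KO, with 48.6 in WT and 49.5 in KO for the former and 44.0 and 45.8 for the latter. The lowest lid genes were nearly equal between libraries. Psmd13 had 40.8 in WT and 39.9 in KO, and Psmd12 had 37.0 and 36.8.

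**Figure D2:**
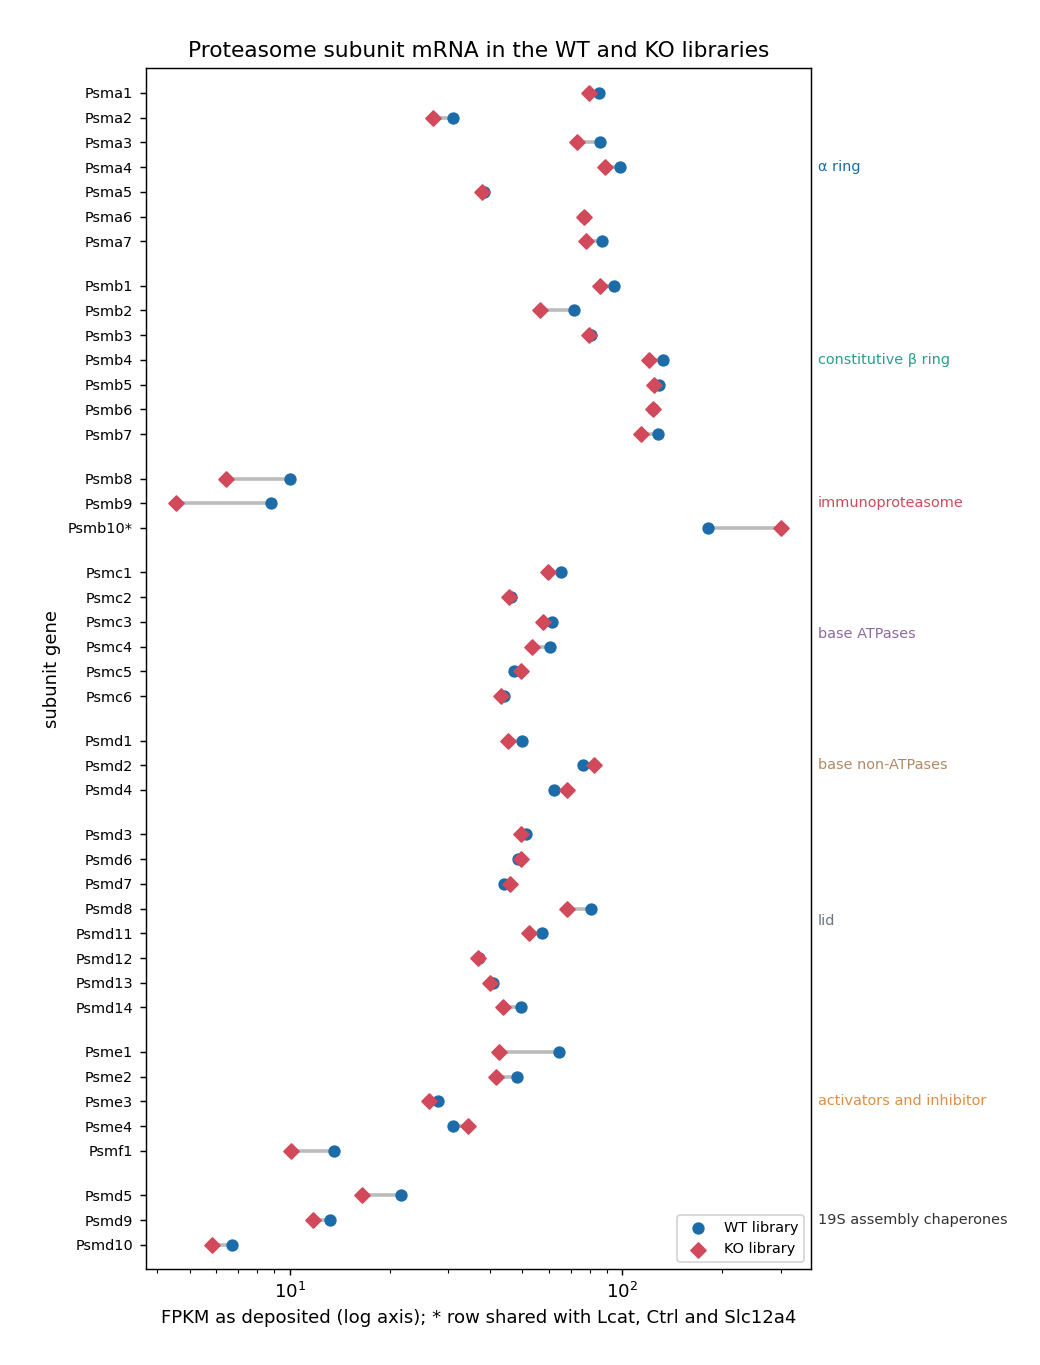
FPKM as deposited (x axis, log scale) of the 42 expressed numbered proteasome genes, in the WT library (blue circles) and the KO library (red diamonds), grouped by role. Most pairs of points nearly coincide, and the gaps are widest at Psmb8, Psmb9, Psme1 and the row of Psmb10, which is shared with Lcat, Ctrl and Slc12a4.

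The constitutive genes had similar relative levels in both libraries. Across the 31 genes the Pearson correlation of log2 FPKM in WT and KO was 0.982, as a description over genes that share each library. The highest gene exceeded the lowest 4.28-fold in WT and 4.63-fold in KO. Estimated fragments ran from 1377 to 6632 per gene and library. At this depth the counting interval of the WT/KO ratio as deposited included 1 for 11 genes, lay above 1 for 17 and below 1 for 3. Several of the 17, such as Psmb4 (1.06 to 1.15), lay wholly below 1.18, the ratio on which all expressed symbols centred. These counts thus also depend on the scaling of the libraries. The 31 genes lie on 14 chromosomes.

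The immunoproteasome genes Psmb8 and Psmb9 were lower in KO, while Psmb5 and Psmb6, which they replace, were nearly equal between libraries. Psmb8 (chromosome 17, 34335140 to 34338399, mm9), the counterpart of Psmb5, reached 10.0 FPKM in WT and 6.42 FPKM in KO. Its WT/KO ratio was 1.56 (counting interval 1.40 to 1.73), from about 885 and 580 fragments. Psmb9 (chromosome 17, 34318932 to 34334173, mm9), the counterpart of Psmb6, reached 8.77 FPKM in WT and 4.55 FPKM in KO. Its ratio was 1.93 (counting interval 1.61 to 2.32), from about 345 and 182 fragments. Both lay past 1.5-fold, as did the 19.9% of all expressed symbols named above, so a difference of this size was not rare in these libraries. Relative to the median of all expressed symbols the ratios were 1.32 for Psmb8 and 1.64 for Psmb9, so that only Psmb9 stayed past 1.5-fold after centring.

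Within each library the ratio of an immunoproteasome gene to its partner does not depend on the scaling. The level of Psmb8 was 7.78% of that of Psmb5 in WT and 5.14% in KO, a 1.51-fold difference. The level of Psmb9 was 7.10% of that of Psmb6 in WT and 3.66% in KO, a 1.94-fold difference. In both libraries the constitutive genes thus exceeded these immunoproteasome genes by an order of magnitude.

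The third immunoproteasome gene, Psmb10, could not be read from the table. Its row (chromosome 8, 108455894 to 108489994, mm9) is a joint locus that names 4 genes, Ctrl, Lcat, Psmb10 and Slc12a4, and spans 34.1 kb where the Psmb10 gene spans 2.67 kb. This row reached 181 FPKM in WT and 299.9 FPKM in KO, above every constitutive subunit gene, and was 1.66-fold higher in KO. Lcat, which encodes a plasma enzyme secreted by hepatocytes, shares this value, so neither the level nor the direction can be assigned to Psmb10. With the joint row included, the median log2 KO/WT of the 3 immunoproteasome genes was -0.63, and the difference of this median from that of Psmb5, Psmb6 and Psmb7 was -0.59. Without rows that name several symbols, which also leaves out Psmb5, these values were -0.78 and -0.70.

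Psmb8 and Psmb9 lie close to one another in the MHC region, with Psmb9 5.88 Mb beyond the end of Ppard on the same chromosome. Psmb1, the third numbered gene on chromosome 17, lies 12.7 Mb before Ppard and had a WT/KO ratio of 1.10. The row of Psmb9 runs past the annotated gene over Tap1. The genes of Psmb9 and Tap1, a peptide transporter subunit, overlap by 212 nt on opposite strands in GENCODE vM1, and Psmb8 shares 187 exonic nt with Gm20496 on the opposite strand. The sequencing kit kept no strand information, so reads from such overlaps cannot be told apart. Tap1 had a row of its own, over the same span as that of Psmb9, at 4.76 FPKM in WT and 4.00 FPKM in KO. Tap2, the other subunit of the transporter and a neighbour of these genes, had 5.77 in WT and 7.23 in KO, and the counting interval of its WT/KO ratio, 0.622 to 1.02, included 1.

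**Figure D3:**
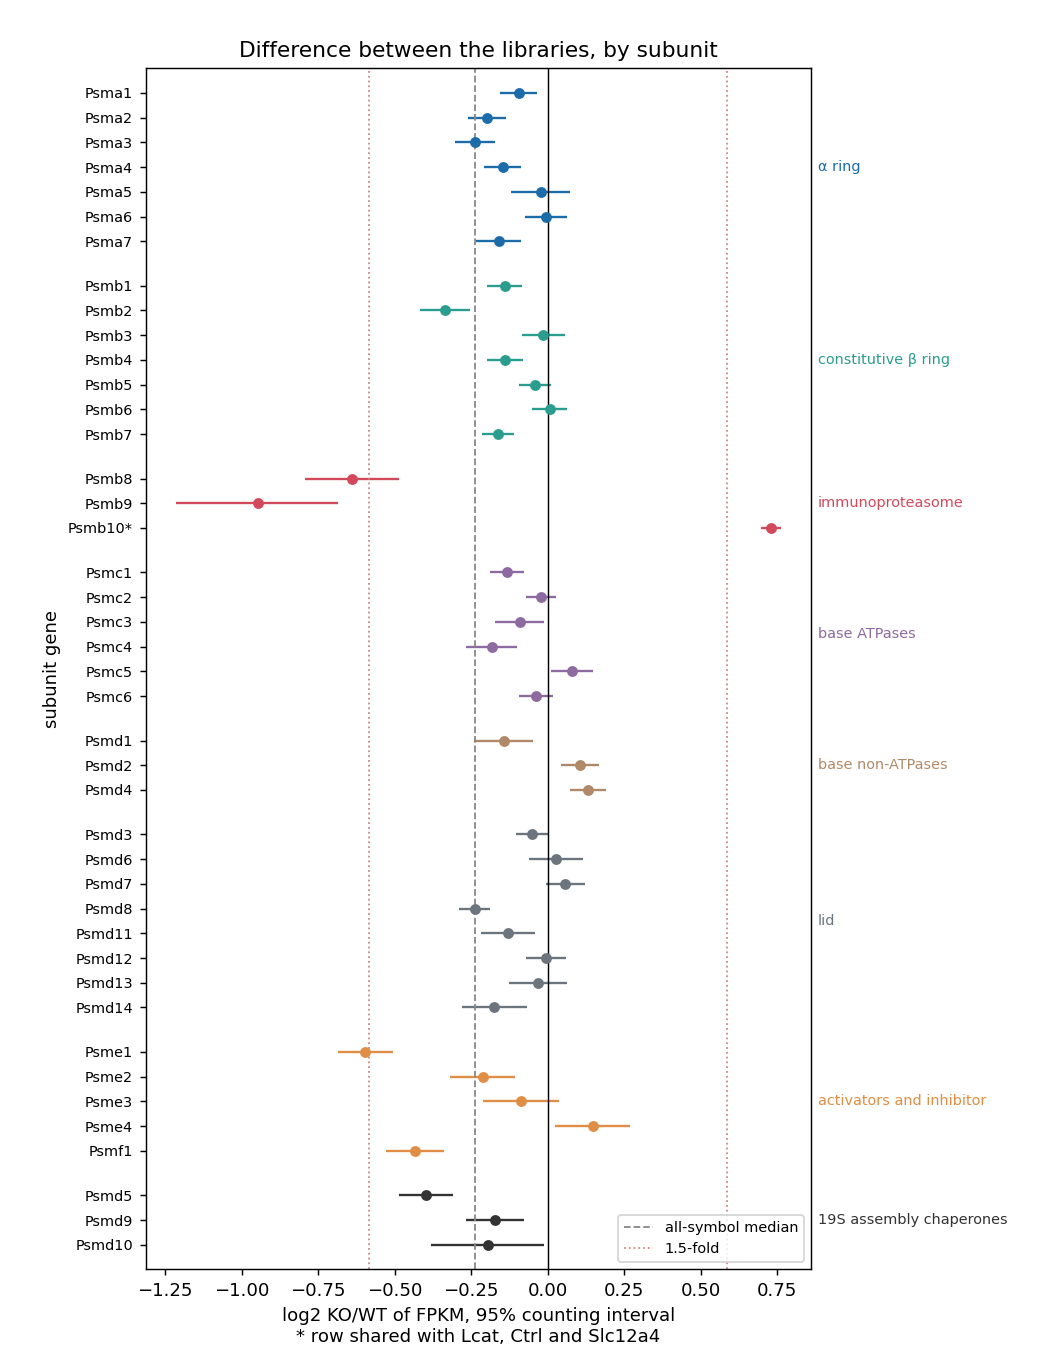
log2 KO/WT of FPKM (x axis) with 95% counting intervals (bars, counting error only) for the 42 numbered genes, grouped by role, with lines at 0, at the median of all expressed symbols (-0.24) and at 1.5-fold. Psmb8, Psmb9 and Psme1 lie beyond the lower 1.5-fold line, the shared row of Psmb10 beyond the upper one, and all 31 constitutive genes between them.

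The activators that cap the core in place of the 19S complex showed both directions. Psme1 and Psme2 form PA28αβ, the interferon-inducible activator. Psme1 reached 64.5 FPKM in WT and 42.7 FPKM in KO, which gave a WT/KO ratio of 1.51 (counting interval 1.42 to 1.61) that was 1.28 after centring and 1.48 with equal sums. Psme2 had 48.2 in WT and 41.6 in KO, which is a ratio of 1.16 (counting interval 1.08 to 1.246). The Psme1 level was 134% of that of Psme2 in WT and 103% in KO. The locus of Psme2 spans 22.8 kb against 3.67 kb for the annotated gene and covers Irf9 and Rnf31, which share another row over the same span. Psme3, the nuclear PA28γ, had 27.9 in WT and 26.3 in KO on a row that also names Aoc2. Psme4, which encodes PA200, was 1.11-fold higher in KO (counting interval 1.02 to 1.20), with 30.9 in WT and 34.3 in KO. Psmf1, the proteasome inhibitor PI31, reached 13.6 FPKM in WT and 10.1 FPKM in KO, which gave a WT/KO ratio of 1.35 (counting interval 1.26 to 1.44).

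Chaperones that help assemble the base of the cap were lower in KO by less than 1.5-fold as deposited. Psmd5 reached 21.7 FPKM in WT and 16.5 FPKM in KO, which gave a WT/KO ratio of 1.32 (counting interval 1.24 to 1.40). Psmd10, also called gankyrin, had 6.70 and 5.85. Psmd9 had 13.2 in WT and 11.7 in KO, but its locus was marked FAIL in the table and spans 203 kb against 21.9 kb for the gene, over Hpd, Setd1b and others. The median log2 KO/WT of these 3 genes was -0.19, and it turned to 0.059 with equal upper quartiles and to 0.045 after centring.

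The tissue-restricted subunits were at the lower end of detection. Psmb11, the β subunit of the thymus, was listed at 0 in both libraries. Psma8, the testis form that takes the place of Psma7, reached 0.817 FPKM in WT and 0.376 FPKM in KO, from about 51.2 and 24.1 fragments. Its level was 0.941% of that of Psma7 in WT and 0.484% in KO, and reads from close paralogs may be split between them. Of the 5 symbols that only begin like a subunit, Psmc3ip encodes a meiotic recombination factor and no proteasome subunit. It reached 1.82 FPKM in WT and 0.391 FPKM in KO, which gave a WT/KO ratio of 4.66 (counting interval 2.95 to 7.65). Psmc3ip shares 385 exonic nt with Mlx on the opposite strand, and reads from this overlap cannot be told apart. The pseudogene Psme2b-ps had 14.4 and 12.3 on a row shared with 9930111J21Rik1. Psmb7-ps2 had 0.0882 and 0.105, and Psmb5-ps and Psmb6-ps were listed at 0 in both libraries.

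Genes that assemble, feed or control the proteasome were examined as a list of 21, all of them expressed. Of these, 4 were lower in KO past 1.5-fold and none was higher, a share close to the 19.9% lower among all expressed symbols. After centring 2 were past it, and the log2 KO/WT had a median of -0.20, or 0.040 after centring. Uchl5 encodes a deubiquitinating enzyme bound to the cap. It reached 12.9 FPKM in WT and 6.61 FPKM in KO, which gave a WT/KO ratio of 1.96 (counting interval 1.78 to 2.15). Rad23b, a shuttle that carries ubiquitinated proteins to the proteasome, had 83.2 in WT and 72.6 in KO. Pomp, the maturation protein of the core, was the most abundant of the list, with 136 in WT and 117 in KO, and Shfm1, a small lid subunit outside the naming rule, had 68.7 and 59.1. The factors that drive subunit transcription went different ways. Nfe2l1, which encodes Nrf1, the regulator that raises subunit genes when the proteasome is inhibited, had 32.3 in WT and 37.9 in KO. Nfe2l2, which encodes Nrf2, had 29.9 in WT and 19.9 in KO, which is a ratio of 1.505 (counting interval 1.42 to 1.59). Chosen after its values were seen, Psmg2, a chaperone of the α ring, was also past 1.5-fold, with 14.9 in WT and 9.38 in KO.

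Ubiquitin itself differed by gene. Ubb, a stress-responsive polyubiquitin gene, reached 270 FPKM in WT and 406 FPKM in KO and was 1.505-fold higher in KO. Rps27a, which encodes a fusion of ubiquitin with a ribosomal protein, had 102 in WT and 87.1 in KO and was lower in KO as deposited but not after centring. Of the 10 genes of this list 1 was higher in KO past 1.5-fold and none was lower, against 4.20% higher and 19.9% lower among all expressed symbols. The median was -0.11, or 0.12 after centring.

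Genes that handle the peptides made by the immunoproteasome differed little as deposited. None of the 12 genes of MHC class I antigen processing differed past 1.5-fold as deposited. Past that fold, 19.9% of all expressed symbols were lower in KO and 4.20% higher. After centring Calr alone was past it, and the share of all expressed symbols on that scale is not given here. For the 12 genes log2 KO/WT had a median of -0.02, or 0.22 after centring, when 9 were higher and 3 lower in KO. B2m reached 1008 FPKM in WT and 917 FPKM in KO, and H2-K1 had 295 and 293. Calr, a chaperone of peptide loading, had 349 in WT and 503 in KO. Tapbpl, a peptide editor, had 7.72 and 6.05. Nlrc5, the activator of MHC class I and Psmb9 transcription, had 4.20 in WT and 4.18 in KO. Interferon-responsive genes likewise went both ways. Of 21 listed genes 20 were found. Of the 12 expressed ones, 2 were lower and 2 higher in KO past 1.5-fold, against the same 19.9% lower and 4.20% higher. The median log2 KO/WT of these 12 genes was -0.0051. This median moved with the processing, to 0.23 after centring, when 3 were higher past 1.5-fold, to -0.26 over all 20 genes without a filter and to -0.22 without joint rows. Irf8 was named by no row used here. Iigp1 had 49.3 in WT and 81.3 in KO, whereas Cxcl10 had 1.94 in WT and 0.623 in KO. Ifit3 had 1.75 and 0.905. The interferon-inducible GTPase gene Irgm1 had 18.1 and 20.2, and Igtp, on a row shared with Irgm2, had 14.2 and 19.9. Irf1 had 11.3 in WT and 9.04 in KO.

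Most macrophage and endothelial markers had lower values in KO beside Psmb8 and Psmb9, while the other immune markers were mostly near the limit of detection. Of 7 macrophage markers 6 were lower past 1.5-fold, against 19.9% of all expressed symbols, and their summed FPKM was 59.7 in WT and 37.3 in KO. Csf1r, the receptor of the macrophage growth factor, had 3.98 in WT and 1.64 in KO. Cd68 had 4.98 and 2.54. The Kupffer cell genes Clec4f and Cd5l had 17.3 and 18.4 in WT and 10.6 and 10.8 in KO, while Marco, the exception, had 6.58 and 7.37. Of 6 endothelial markers 5 were lower past 1.5-fold, against the same 19.9%, with sums of 48.5 and 34.6. Kdr had 4.36 and 2.27, and Lyve1 had 2.72 and 1.17. Stab2 had 9.66 in WT and 6.23 in KO, Pecam1 had 5.21 and 3.40, and Clec4g, on a row shared with Gm9814, had 21.8 and 18.9. Lymphocyte markers reached at most 0.340 FPKM in WT and 0.127 in KO, both for Cd4, and their sum over 11 genes was 1.22 in WT and 0.624 in KO. The neutrophil markers S100a8 and S100a9 had 6.68 and 6.11 in WT and 3.33 and 3.48 in KO. Of the 8 genes of that list 3 were at 0 in both libraries, Ly6g, Mpo and Camp, Elane and Ngp were higher in KO at 0.109 FPKM or less, and the sum was 12.9 in WT and 6.93 in KO. The 6 dendritic cell markers summed to 1.52 and 1.36, most of it from Zbtb46 with 1.18 and 1.05 (counting interval of the WT/KO ratio 0.900 to 1.39), and 3 of them, Flt3, Xcr1 and Siglech, had higher values in KO. After centring, 4 of the 7 macrophage and 3 of the 6 endothelial markers stayed past 1.5-fold. The 19.9% holds for the values as deposited, and the share of all expressed symbols after centring is not given here. The part of these cells in the values of Psmb8, Psmb9 and Psme1 was not tested. Hepatocyte markers, which define the tissue, were high in both libraries, between 172 and 3337 FPKM in WT and between 193 and 4039 in KO, with 5 of 7 higher in KO and a median log2 KO/WT of 0.17. Cps1, a urea cycle enzyme, had 1597 in WT and 743 in KO, and Cyp2e1, a cytochrome P450, had 1039 and 2319. Ttr had 2503 and 2406, Apoa1 had 3061 and 3503, and Serpina1a had 3337 and 4039.

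**Figure D4:**
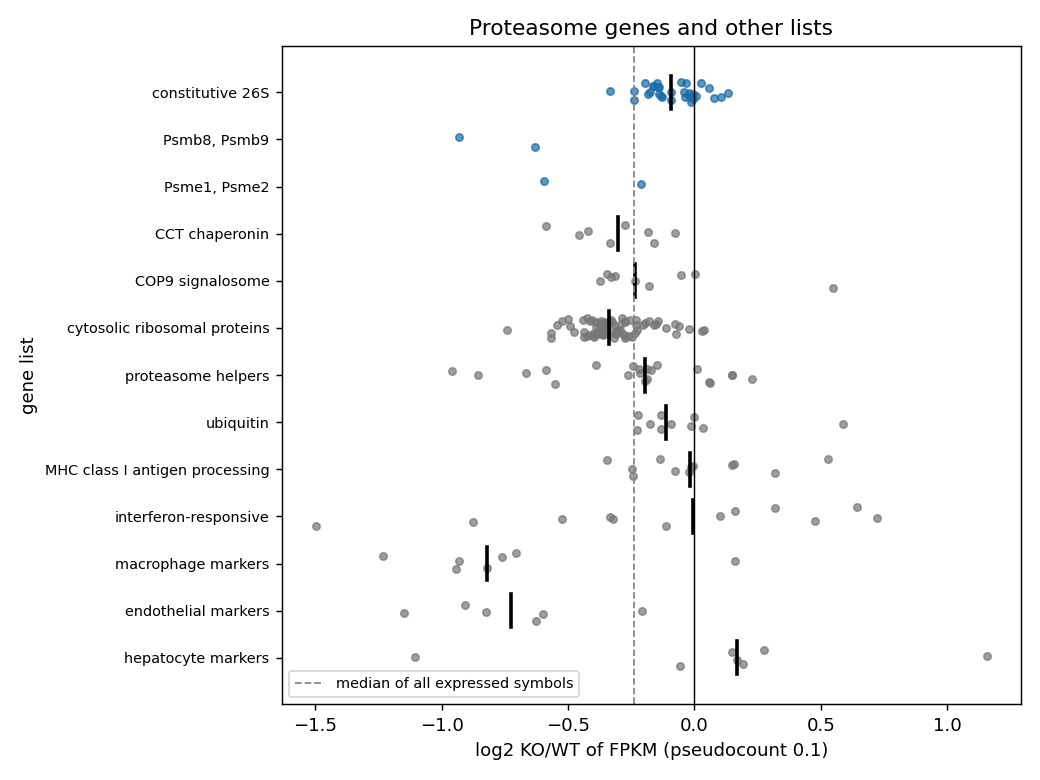
log2 KO/WT of FPKM (x axis, pseudocount 0.1) of single genes (points) in the proteasome groups (blue) and in other lists (grey), for expressed genes, with a black bar at the median of each list of 3 or more genes and a dashed line at the median of all expressed symbols. The constitutive genes form a narrow band around -0.09, Psmb8 (-0.63) and Psmb9 (-0.93) lie on either side of the medians of the macrophage (-0.82) and endothelial (-0.72) markers, and MHC class I genes centre on -0.02.

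Other large complexes built from many subunit genes had lower medians than the constitutive proteasome, and this difference was not tested. The CCT chaperonin, which folds actin and tubulin, had a median of -0.30 over 8 genes, all lower in KO as deposited and 5 of 8 lower after centring. Cct7 reached 53.3 FPKM in WT and 35.4 FPKM in KO and was past 1.5-fold, but no CCT gene was after centring. Tcp1, on a row shared with small nucleolar RNA genes, had 90.5 and 74.9, Cct5 had 74.8 and 59.3, Cct3 had 70.6 and 67.0, and Cct4 had 49.5 and 36.1. The COP9 signalosome, a relative of the lid, had a median of -0.23 over 9 genes, from -0.37 for Cops4 to 0.55 for Cops6, and the median was 0.0023 after centring, when Cops6 was higher past 1.5-fold. Cops6 had 58.1 in WT and 85.2 in KO, Cops7a 36.9 and 29.1, Cops5 35.8 and 28.8, and Cops4 18.4 and 14.2. For 78 expressed cytosolic ribosomal protein genes the median was -0.34, with 76 of them lower in KO as deposited and 61 after centring. Rplp0 was past 1.5-fold as deposited but not after centring, with 289 in WT and 172 in KO. Rplp1 had 832 and 620.3, and 3 genes on rows shared with small nucleolar RNA genes, and for Rpl13a also with Flt3l, differed by less than 1.5-fold, Rpl13a with 532.5 and 370.1, Rps2 with 480 and 323 and Rpl30 with 169 and 114. The SD of log2 KO/WT over genes was 0.11 for the constitutive proteasome, 0.13 for the ribosomal proteins, 0.17 for CCT and 0.29 for the COP9 signalosome. The distance between the medians of ribosomal and constitutive proteasome genes does not move with the scaling of the libraries.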

How the data were processed

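Total liver RNA of 2 libraries, 1 per genotype, was sequenced with reads of 100 bp (described as single end in the methods and as paired end in the labels). The authors aligned the reads to mm9 (NCBI37) with TopHat 2.0.0, assembled transcripts with Cufflinks 1.3.0 and obtained 1 FPKM value for each locus in each library from Cuffdiff, and these deposited FPKM values were the measurement used here. Further columns of the deposited table hold the authors' own comparison and were not used. Loci were split at commas, rows of one symbol were summed, and rows marked HIDATA were left out. Log2 KO/WT used a pseudocount of 0.1 FPKM, which understates changes of low genes, and lists were read over genes averaging 1 FPKM or more. A gene counted as different past 1.5-fold, a fold that the study applies to glycolysis genes, while it describes all genes at a fold of 2. Fragments per gene were estimated from the depth and the median annotated transcript length in GENCODE vM1 (NCBIM37). They would be too few or too many where another transcript prevails, and the counting intervals would then be too wide or too narrow. The software was Python 3.11.15 with pandas 2.3.3, numpy 2.4.6 and scipy 1.17.1, figures were drawn in matplotlib 3.10.9, and the steps were tested on simulated data. Coordinates of loci are on mm9, counted from 1. The members and lists were chosen with earlier results of these data known. Named genes were all members and, per list, the 3 with the highest mean FPKM and the 2 with the largest fold among expressed genes, with Ppard, Nfe2l1, Nfe2l2, Irf1, Nlrc5, Tap1 and Tap2. Of the lymphocyte, neutrophil and dendritic cell markers, those under 1 FPKM are mostly given as sums, and a few genes that this rule names are not reported here. Alternatives covered the pseudocount, the filter, the fold, the scaling, several rows per symbol and joint rows.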

Additional observations from a re-analysis of the deposited data

How the results depend on the processing

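No paired analysis was possible because the design holds 1 library of each genotype and no number that pairs them, and for the same reason no library could be left out. Scaling decided the sign of small shifts. With equal upper quartiles and with centring on the median of expressed symbols, in this order, the median log2 KO/WT was 0.16 and 0.15 for the constitutive subunits, 0.21 and 0.20 for Psmb5, Psmb6 and Psmb7, 0.11 and 0.090 for the α ring, and 0.059 and 0.045 for the 19S assembly chaperones. With a mean FPKM of at least 10, only the joint row of Psmb10 was left of the immunoproteasome genes, and their median turned to 0.73 and its difference from the constitutive partners to 0.77. At a lower limit of 0.32 on the log2 scale, 1 constitutive subunit, Psmb2, was lower in KO as deposited. After centring Psmb2 was within this limit, while Psmd2 (0.34) and Psmd4 (0.37) were past it and higher in KO. The counts of constitutive subunits past 1.5-fold stayed at 0 under the other settings. The immunoproteasome median was -0.63 as reported, -0.38 with equal upper quartiles, -0.39 after centring and -0.78 without joint rows. Counting error was small for the constitutive genes, and the error between mice was not measured.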
